A study of Mus musculus with 6 samples.

Results

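The mitosis and spindle genes were followed in sorted haematopoietic stem cells (HSCs) of mice. They are 42 genes of mitotic kinases, kinesins, kinetochores and cytokinesis, taken by symbol from the 46959 rows of an RNA-seq table. HSCs from mouse bone marrow were sorted as lineage-, Sca-1+, c-Kit+, CD150+ and CD48- cells, and RNA was sequenced from 3 control and 3 MaeaCsf1r-Cre libraries of about 2000 cells each, at 8 weeks of age per the series description, while the study's methods give a range of young adult ages that includes it. MaeaCsf1r-Cre mice carry floxed Maea, which encodes a subunit of an E3 ubiquitin ligase, and a Cre driven by Csf1r regulatory sequence, a line classically used for mononuclear phagocytes. Controls were littermates, and whether those behind these 3 libraries carried the Cre is not given in the sources used here. Each library was made from pooled mice, per the study's methods. The values are CPM, the reads of a gene scaled to the total of its library, and are given for replicates 1, 2 and 3 in that order. They rest on an estimated 32965000 to 39610000 reads in control libraries and 44153000 to 60929000 in MaeaCsf1r-Cre libraries. These totals were inferred from the steps between low CPM values. The CPM of all rows added up to 75.2% of the scaling total in MaeaCsf1r-Cre replicate 2, the least, and to 80.2% in MaeaCsf1r-Cre replicate 1, the most. The bearing of this on the mitosis genes was not tested. Maea itself was at 108, 116 and 123 CPM in the controls and at 76.9, 88.6 and 101 CPM in the MaeaCsf1r-Cre libraries, without overlap. The log2 fold change was -0.39 ± 0.13 (limma estimate ± standard error), with a Benjamini-Hochberg adjusted p of 0.967, and reads of the deleted exons are not told apart from those of the other exons. MaeaCsf1r-Cre replicate 2 stood apart from the other MaeaCsf1r-Cre libraries for the mitosis genes, so their results are given with and without it.

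Adult HSCs are mostly quiescent, and mitotic transcripts build up in a cell as it passes through G2. Cyclin B and CDK1 then start mitosis, kinetochores and kinesins move the chromosomes, the spindle checkpoint holds the anaphase-promoting complex until every chromosome is attached, and the centralspindlin and anillin machinery divides the cell. Transcription of these genes is timed by the MuvB complex, which represses them in quiescent cells as part of DREAM and activates them with B-Myb and FOXM1 through a promoter element called the CHR, while the factor NF-Y binds CCAAT boxes nearby.

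The promoters of the members shared these elements, which the choice of genes did not use. RefSeq start sites on GRCm38.p6, the mm10 assembly, were matched for 35 of the 42 members. A CHR, searched as TTTGAA or TTCGAA on both strands, lay within 250 bases before to 50 bases after the start in 29 of the 35 members (82.9%), against 21.7% of 27025 genes with a promoter. Of the genes tested for expression, 16.5% of 9118 with a promoter held one. At least 2 CCAAT boxes, searched as CCAAT on both strands, lay there in 19 of 35 members (54.3%), against 13.3% of all genes with a promoter. In the shorter window of 120 bases before to 30 bases after the start, a CHR lay in 24 of 35 members (68.6%), against 10.4% of all genes, and at least 2 CCAAT boxes lay in 15 (42.9%), against 6.41%. A match is a run of letters and not a measured binding site.

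The 150 bases of that shorter window are shown for Cdk1 and Ccnb2, which encode the kinase that starts mitosis and one of its cyclins, and for Cdca8, Ttk, Hmmr and Top2a, which held both elements and whose expression is given below. Mki67 is shown for contrast, with a CHR and no CCAAT box in the window. Capitals mark the CHR (TTTGAA, its reverse complement TTCAAA, or TTCGAA) and the CCAAT box (CCAAT or its reverse complement ATTGG), and in Cdca8 a CHR and a CCAAT box overlap. On GRCm38.p6 the windows are chr10:69352883-69353032 (minus strand) for Cdk1, chr9:70421525-70421674 (minus strand) for Ccnb2, chr4:124936888-124937037 (minus strand) for Cdca8, chr9:83834569-83834718 (plus strand) for Ttk, chr11:40733408-40733557 (minus strand) for Hmmr, chr11:99024160-99024309 (minus strand) for Top2a and chr7:135716350-135716499 (minus strand) for Mki67.
Cdk1: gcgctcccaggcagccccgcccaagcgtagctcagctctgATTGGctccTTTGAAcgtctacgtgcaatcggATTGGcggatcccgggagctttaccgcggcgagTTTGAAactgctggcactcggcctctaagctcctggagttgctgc
Ccnb2: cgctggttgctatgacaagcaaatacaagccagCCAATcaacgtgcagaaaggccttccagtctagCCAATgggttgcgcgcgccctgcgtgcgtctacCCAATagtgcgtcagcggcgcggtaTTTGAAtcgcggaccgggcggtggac
Cdca8: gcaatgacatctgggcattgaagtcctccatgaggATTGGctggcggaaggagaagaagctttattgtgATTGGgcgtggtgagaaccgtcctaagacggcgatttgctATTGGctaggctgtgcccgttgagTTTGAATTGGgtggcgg
Ttk: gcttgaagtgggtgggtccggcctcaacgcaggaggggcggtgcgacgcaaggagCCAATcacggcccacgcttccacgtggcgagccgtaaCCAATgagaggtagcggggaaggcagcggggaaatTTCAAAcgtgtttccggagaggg
Hmmr: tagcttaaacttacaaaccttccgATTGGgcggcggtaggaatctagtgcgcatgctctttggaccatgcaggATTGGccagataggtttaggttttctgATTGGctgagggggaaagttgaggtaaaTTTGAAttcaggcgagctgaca
Top2a: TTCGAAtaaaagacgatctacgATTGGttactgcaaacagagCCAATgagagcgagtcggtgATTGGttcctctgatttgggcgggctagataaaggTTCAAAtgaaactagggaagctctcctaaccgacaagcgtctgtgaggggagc
Mki67: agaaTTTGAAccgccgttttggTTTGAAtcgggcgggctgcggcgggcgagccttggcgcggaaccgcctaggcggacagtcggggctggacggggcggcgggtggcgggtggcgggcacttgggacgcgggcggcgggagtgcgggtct

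In these windows the CCAAT boxes of Ccnb2 began 87, 54 and 21 bases before the start, and those of Top2a 98, 78 and 58 bases before it. Both genes held a CHR downstream of their last CCAAT box, from base 5 in Ccnb2, counting the start as base 1, and 23 bases before the start in Top2a. Top2a held another, as TTCGAA, 120 bases before its start. Cdk1 differed, with 1 CHR between its CCAAT boxes, 71 bases before the start, and another 15 bases before it. The 2 CHR copies of Mki67 began 116 and 98 bases before its start. Birc5, Mad2l1, Ndc80, Nuf2 and Nusap1 held none of these letters in the shorter window.

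All 42 members were expressed above a CPM of 1 in at least 3 libraries, the filter for testing. Per kilobase of exon, the control mean was highest for the cyclin B gene Ccnb1, at 92.3 CPM per kb, followed by the anaphase activator Cdc20 at 79.3, Ccnb2 at 76.4 and the centromeric histone Cenpa at 70.6 CPM per kb. The lowest were the long genes Cenpf and Cenpe, at 2.61 and 4.32 CPM per kb. The exons of 9 members share bases with a neighbouring gene, and their counts may hold reads of that gene. The library kit does not mark strand, and in all but Foxm1 the neighbour lies on the other strand. The longest overlaps were 1271 bases of Kif20a with Cdc23, 753 of Kif4 with Pdzd11, 670 of Prc1 with Rccd1 and 592 of Ube2c with Tnnc2, the last of which was at 0 in all libraries. Those of Ccna2, Nusap1, Plk1, Foxm1 and Cdc20 ran from 53 to 378 bases. The fewest reads behind any member's value, by the estimated depths, were about 562, for the phosphatase gene Cdc25c in control replicate 3.

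Of the 42 members, 41 had a higher log2 mean in MaeaCsf1r-Cre than in control HSCs, while 39.1% of the 12955 genes tested did. In bulk RNA fewer or more cells in mitosis and less or more mitotic RNA per cell cannot be told apart. The median log2 fold change of the members on log2(CPM + 1) was 0.15, from -0.10 for Kif23 to 0.35 for Cdca3, beside a median of -0.06 over all genes tested. As a ratio of mean CPM the median member was 1.12 times the control level, with a range of 0.943 to 1.28. No member passed the test, with 0 of 42 at an adjusted p under 0.05 and a smallest adjusted p of 0.967 (limma, with Benjamini-Hochberg adjustment across the 12955 genes), where 0.00772% of all genes passed. At an unadjusted p under 0.05 limma also gave 0 of 42 members, against 0.803% of all genes for the higher direction. The 95% interval of the fold change included 0 for all 42, as the plot of group differences shows, and for 5 members the difference between group means exceeded the larger SD.

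**Figure D1:**
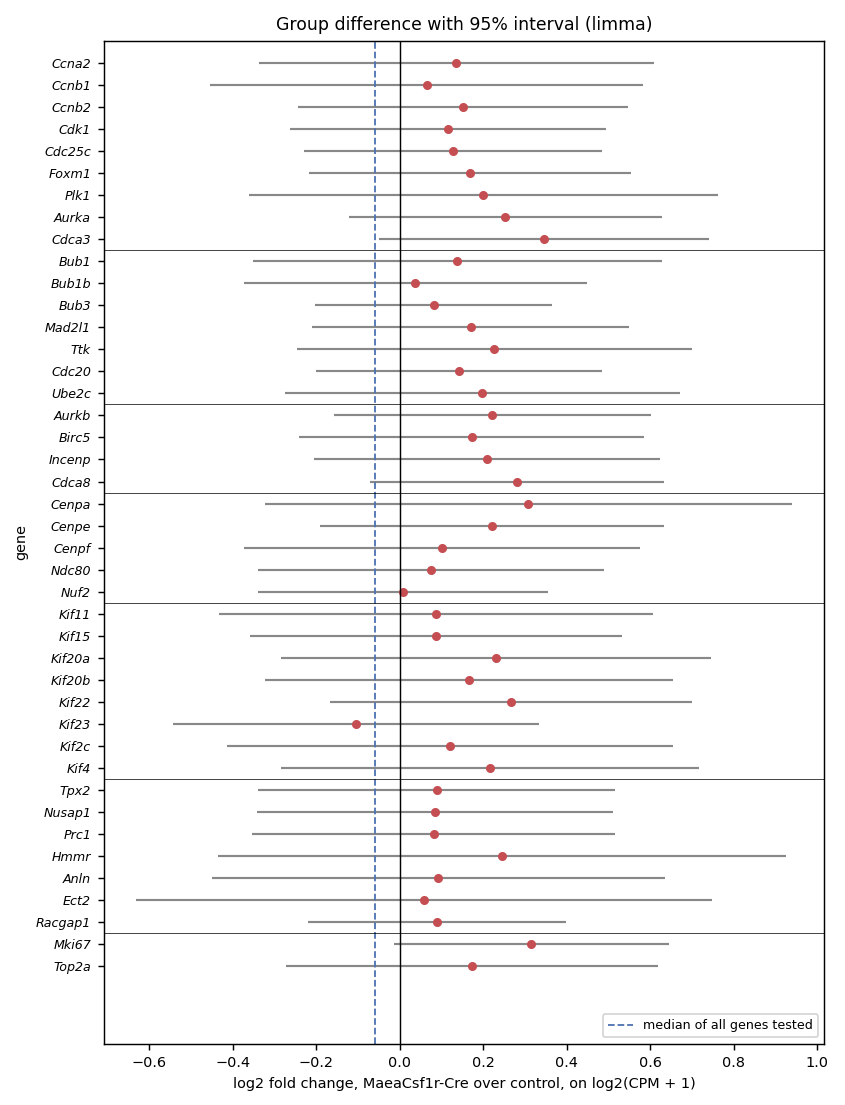
Log2 fold change of each member, MaeaCsf1r-Cre over control, on log2(CPM + 1) (horizontal axis), by gene in order of role (vertical axis). Points are limma estimates from 3 libraries a group, bars are 95% intervals, the dashed line is the median of all genes tested, and 41 of 42 points lie above 0 while every interval includes 0.

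The libraries did not divide by group. By CPM no member separated the groups, while 2.49% of all genes tested were higher in every MaeaCsf1r-Cre library than in every control library. MaeaCsf1r-Cre replicate 1 lay above every control library for 39 members and replicate 3 for 29. MaeaCsf1r-Cre replicate 2 was the lowest library of its group for all 42 members, lay above every control library for 0 and below every control library for 21. Of the controls, replicate 1 was the highest for 35 members. The mean over the 42 members, as a log2 difference from all 6 libraries, was 0.10, -0.17 and -0.16 in the controls, and 0.29, -0.26 and 0.20 in MaeaCsf1r-Cre HSCs. The highest and the lowest library of the series by CPM were thus both MaeaCsf1r-Cre. Scaling by median ratios, an alternative, divides MaeaCsf1r-Cre replicate 2 by 0.927 and control replicates 2 and 3 by 1.03 and 1.04. That raises MaeaCsf1r-Cre replicate 2 against them, so its lowest place and the counts for it hold for CPM and depend on the scaling. Within a group, the highest library was a median of 1.30 times the lowest over the members in control and 1.53 times in MaeaCsf1r-Cre, beside the median ratio of 1.12 between group means.

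**Figure D2:**
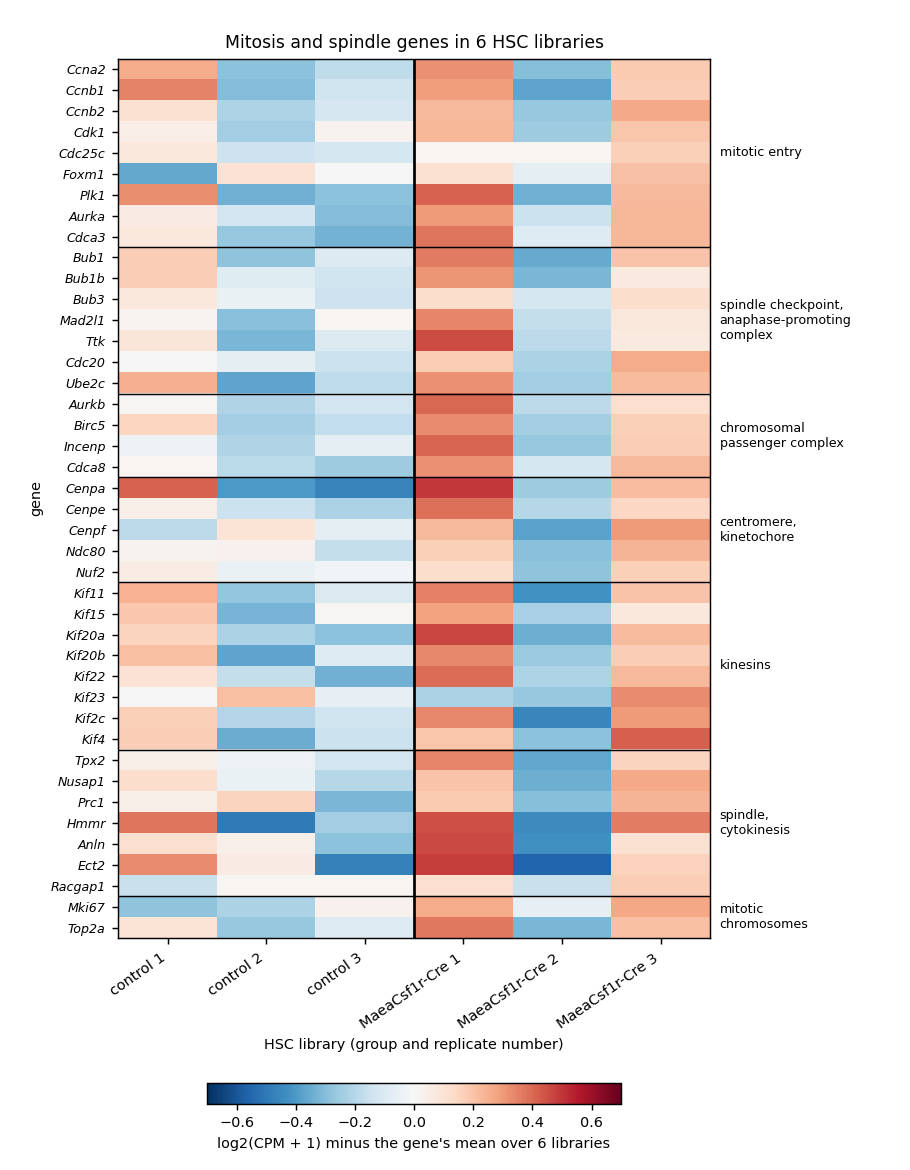
Log2(CPM + 1) of each member in each library minus the gene's mean over the 6 libraries (colour scale, log2 units), with genes in rows by role and libraries in columns by group and replicate number. MaeaCsf1r-Cre replicates 1 and 3 and control replicate 1 are mostly red, and MaeaCsf1r-Cre replicate 2 is the lowest of its group for all 42 genes.

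MaeaCsf1r-Cre replicate 2 was picked as the lowest of its group for all 42 members, so leaving it out raises their fold changes by that choice. The shares of all genes below were not selected in this way and are no like comparison. Without MaeaCsf1r-Cre replicate 2 the median log2 fold change of the members was 0.33, beside -0.02 over all genes. All 42 members were then higher, and 27 were higher in both remaining MaeaCsf1r-Cre libraries than in every control library, against 9.80% of all genes. In limma 10 members then had an unadjusted p under 0.05, against 1.31% of all genes, and 0 an adjusted p under 0.05. Leaving out control replicate 2 as well also gave 27 members higher without overlap, against 12.6% of all genes, and a median of 0.29. The median was 0.04 without MaeaCsf1r-Cre replicate 1 and 0.07 without MaeaCsf1r-Cre replicate 3, with 31 and 34 members higher. It was 0.24 without control replicate 1, and 0.09 without control replicate 2. Without both libraries of replicate 3 it was 0.06, with 28 members higher.

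Same-numbered libraries deviated together, so they were also compared in pairs. MaeaCsf1r-Cre replicate 1 was above control replicate 1 for 39 of 42 members, with a median log2 difference of 0.17, where 46.9% of all genes were higher. In the replicate 3 pair all 42 members were higher, with a median of 0.36, where 51.4% of all genes were. In the replicate 2 pair 14 of 42 were higher, with a median of -0.05, but there only 31.8% of all genes were higher and their median was -0.14. The 13 members higher in all 3 pairs were Plk1, Cdca3, Mad2l1, Ttk, Ube2c, Aurkb, Cdca8, Cenpa, Kif15, Kif20b, Kif4, Hmmr and Mki67, or 13 of 42 members against 13.2% of all genes. Another 26 were higher in the replicate 1 and 3 pairs and lower in the replicate 2 pair, against 1807 of the 12955 genes tested. Members lower in all 3 pairs numbered 0, against 3040 of those genes. Median ratios divide control replicate 2 by 1.03 and MaeaCsf1r-Cre replicate 2 by 0.927. That raises the replicate 2 pair, so its counts and median, and the counts over all 3 pairs, hold for CPM and depend on the scaling. With the replicate number as a block, limma gave an unadjusted p under 0.05 for 4 members, Cdca3, Mki67, Cdca8 and Cenpa, against 3.11% of all genes for the higher direction. Their adjusted p was 0.270, 0.274, 0.325 and 0.358 in that order (limma, Benjamini-Hochberg), the first being the smallest of any member, and 0 members passed. Correction for exon length together with the block gave 25 members with an unadjusted p under 0.05, against 7.24% of all genes, and again 0 at an adjusted p under 0.05.

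**Figure D3:**
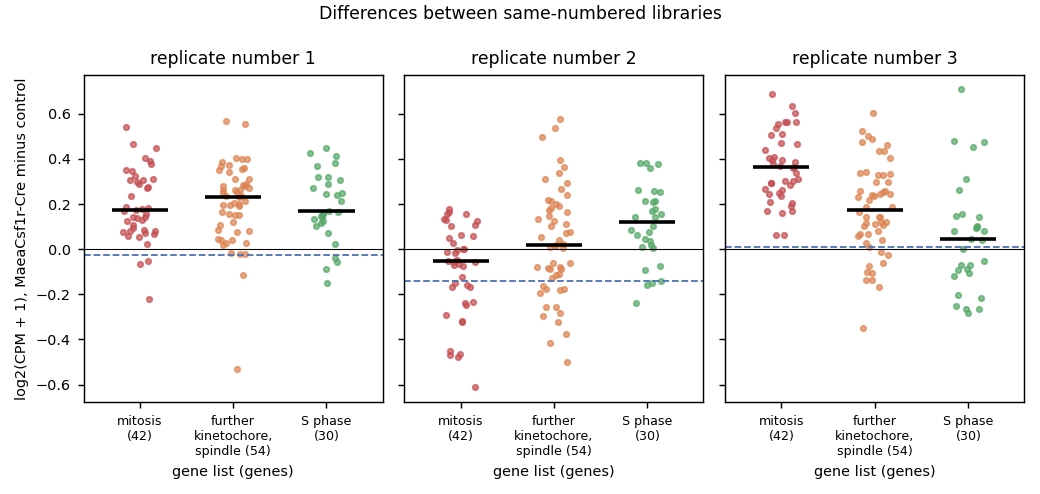
Log2(CPM + 1) in a MaeaCsf1r-Cre library minus the control library of the same replicate number (vertical axis) for 42 mitosis genes, 54 further kinetochore and spindle genes and 30 S phase genes (horizontal axis), 1 panel for each replicate number. Points are genes, black bars are list medians and the dashed line is the median of all genes tested, with the mitosis median at 0.17, -0.05 and 0.36 in panels 1, 2 and 3.

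Genes of mitotic entry had a median log2 fold change of 0.15, with 9 of 9 higher. Cdca3, which encodes a trigger of mitotic entry that is degraded in G1, was at 68.5, 53.8 and 51.5 CPM in the controls and at 84.5, 60.9 and 76.6 CPM in MaeaCsf1r-Cre HSCs. MaeaCsf1r-Cre replicates 1 and 3 stood above every control, and replicate 2 lay under control replicate 1. The means were 57.9 ± 9.24 and 74.0 ± 11.98 CPM (SD, n = 3 each), and the log2 fold change of 0.35 ± 0.17 (SE) was the largest of the 42. Aurka, the kinase that matures centrosomes, was at 87.5, 76.4 and 67.7 CPM in control and 103, 75.5 and 98.8 CPM in MaeaCsf1r-Cre HSCs, and the groups overlapped through MaeaCsf1r-Cre replicate 2. Its log2 fold change was 0.25 ± 0.16 (SE). The adjusted p was 0.967 for each of the 14 members with the smallest unadjusted p of their roles (limma with Benjamini-Hochberg adjustment).

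The cyclin and kinase genes at the core of entry overlapped between the groups. Ccnb1, Cdk1 and Foxm1 were singled out after the values were seen, and their adjusted p was 0.981, 0.967 and 0.967 (limma). Ccnb1 was at 294, 186 and 209 CPM in control and 283, 178 and 259.8 CPM in MaeaCsf1r-Cre HSCs. It was high in both libraries of replicate 1 and low in both of replicate 2. Cdk1, its kinase partner, was at 117, 94.97 and 115 CPM in control and 132, 94.6 and 129 CPM in MaeaCsf1r-Cre HSCs. Foxm1, which encodes a transcription factor of the G2 genes, ran against this order among the controls, at 26.6, 37.0 and 34.4 CPM there, and was at 37.2, 32.9 and 39.8 CPM in MaeaCsf1r-Cre HSCs. Control replicate 1 was its lowest library, while it was the highest control for most members.

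Spindle checkpoint and anaphase genes had a median log2 fold change of 0.14, with 7 of 7 higher. Mad2l1, the checkpoint protein that binds the anaphase activator CDC20, was at 97.8, 78.5 and 97.4 CPM in control and 123, 85.7 and 102 CPM in MaeaCsf1r-Cre HSCs. Each MaeaCsf1r-Cre library was above its same-numbered control, but replicate 2 lay below control replicates 1 and 3. The means were 91.2 ± 11.0 and 103 ± 18.5 CPM (SD, n = 3 each), with log2 fold change 0.17 ± 0.16 (SE). Ttk, the kinase that recruits the checkpoint to kinetochores, was at 25.8, 19.3 and 22.6 CPM in control and 33.8, 21.2 and 25.5 CPM in MaeaCsf1r-Cre HSCs. MaeaCsf1r-Cre replicate 1 alone stood above every control, and the log2 fold change was 0.23 ± 0.20 (SE). Bub1b, which encodes the CDC20 inhibitor BUBR1, had a smaller difference, with a log2 fold change of 0.04 ± 0.18 (SE, 95% interval -0.37 to 0.45).

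The 4 genes of the chromosomal passenger complex, which corrects wrong attachments and later directs cytokinesis, had a median log2 fold change of 0.22 and were all higher. Aurkb, its kinase, was at 95.4, 81.9 and 86.3 CPM in control and 125, 83.4 and 103 CPM in MaeaCsf1r-Cre HSCs. MaeaCsf1r-Cre replicates 1 and 3 were above every control, and the log2 fold change was 0.22 ± 0.16 (SE). Cdca8, which encodes the complex's borealin subunit, was at 84.5, 73.5 and 70.4 CPM in control and 105, 76.8 and 98.0 CPM in MaeaCsf1r-Cre HSCs. It showed the same order, with MaeaCsf1r-Cre replicate 2 above 2 of the 3 controls. The means were 76.1 ± 7.41 and 93.2 ± 14.6 CPM (SD, n = 3 each), with log2 fold change 0.28 ± 0.15 (SE). Birc5 (survivin) and Incenp (the scaffold) had log2 fold changes of 0.17 and 0.21.

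Centromere and kinetochore genes had a median log2 fold change of 0.10, with 5 of 5 higher. Cenpa, the histone H3 variant that marks centromeres, was at 165, 93.4 and 89.2 CPM in control and 175, 104 and 144 CPM in MaeaCsf1r-Cre HSCs. Control replicate 1 stood far above the other controls, and each MaeaCsf1r-Cre library lay above its same-numbered control. The log2 fold change was 0.31, with a wide standard error of 0.27. Cenpe, the kinetochore kinesin, was at 37.9, 33.2 and 31.5 CPM in control and 48.5, 32.0 and 40.9 CPM in MaeaCsf1r-Cre HSCs, with a log2 fold change of 0.22 ± 0.18 (SE). The NDC80 complex genes Ndc80 and Nuf2, which bind microtubules, had log2 fold changes of 0.08 and 0.01. In the replicate 2 pair Nuf2, Ndc80 and Cenpf were lower in the MaeaCsf1r-Cre library by log2 differences of -0.23, -0.32 and -0.47.

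**Figure D4:**
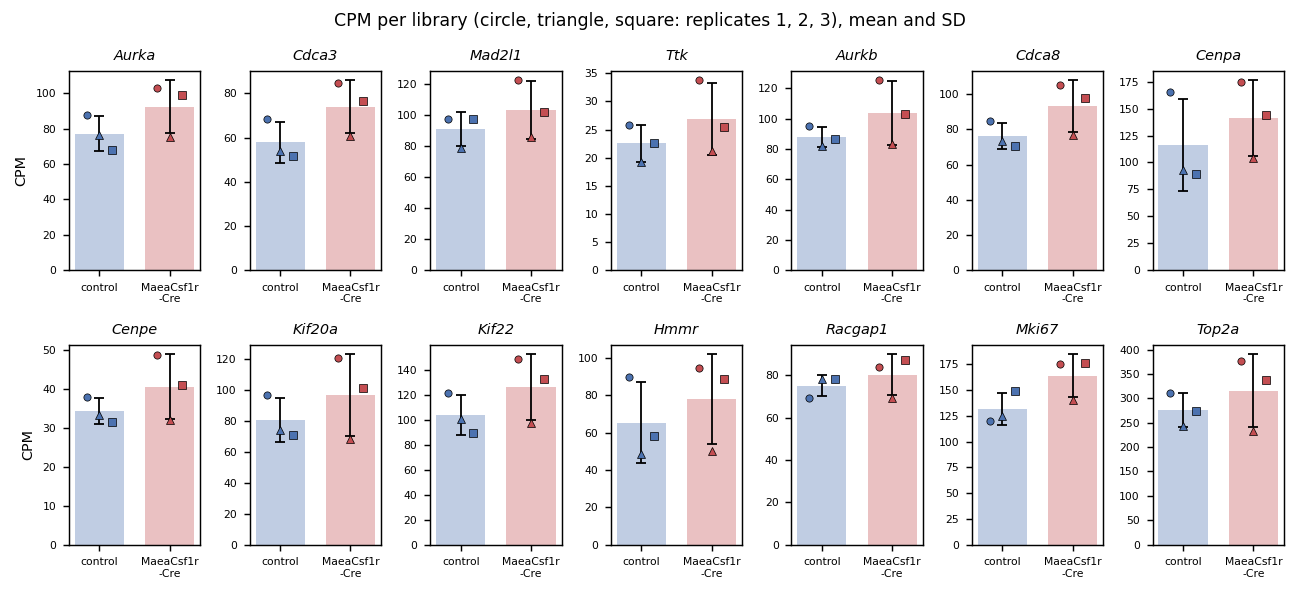
CPM of 14 members (vertical axes, each from 0) in control and MaeaCsf1r-Cre HSCs (horizontal axes). Symbols are libraries by replicate number, bars are means and error bars are SD (n = 3), and in each panel the MaeaCsf1r-Cre triangle, replicate 2, falls within or below the range of the controls.

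The 8 kinesin genes had a median log2 fold change of 0.14, with 7 higher. Kif22, a chromosome arm motor, was at 121, 101 and 89.4 CPM in control and 148, 97.0 and 132 CPM in MaeaCsf1r-Cre HSCs. Replicates 1 and 3 of MaeaCsf1r-Cre exceeded every control, with a log2 fold change of 0.27 ± 0.19 (SE). Kif20a, a motor of the central spindle, was at 96.9, 74.3 and 71.0 CPM in control and 120.4, 68.1 and 101 CPM in MaeaCsf1r-Cre HSCs. MaeaCsf1r-Cre replicate 2 was its lowest library, and the log2 fold change was 0.23 ± 0.22 (SE). Kif23, the kinesin of centralspindlin and the single member with a lower mean, was singled out after the values were seen. It was at 38.1, 44.3 and 36.6 CPM in control and 32.5, 31.6 and 48.1 CPM in MaeaCsf1r-Cre HSCs. Its lowest libraries and its highest were all MaeaCsf1r-Cre, with a log2 fold change of -0.10 ± 0.19 (SE, 95% interval -0.54 to 0.33, adjusted p = 0.973 from limma), and above 0 after correction for exon length.

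Spindle and cytokinesis genes had a median log2 fold change of 0.09, with 7 of 7 higher. Hmmr, a spindle assembly factor, was at 89.6, 48.5 and 58.0 CPM in control and 94.6, 50.3 and 88.6 CPM in MaeaCsf1r-Cre HSCs. Both libraries of replicate 1 were high and both of replicate 2 low, and the log2 fold change was 0.24 ± 0.29 (SE). Racgap1, the partner of Kif23 in centralspindlin, was at 69.3, 78.1 and 78.1 CPM in control and 84.1, 69.4 and 87.5 CPM in MaeaCsf1r-Cre HSCs. Its lowest libraries were control replicate 1 and MaeaCsf1r-Cre replicate 2, and its log2 fold change was 0.09 ± 0.13 (SE), or -0.0029 without both libraries of replicate 1. Ect2, the exchange factor that activates RhoA at the cleavage furrow, had the widest interval of the 42, from -0.63 to 0.75. Its log2 differences in pairs 1, 2 and 3 were 0.16, -0.61 and 0.64. In the replicate 2 pair 6 of these 7 genes were lower by CPM, with a median of -0.32, against a median of -0.01 for the genes of mitotic entry.

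The proliferation marker Mki67, which encodes a coat protein of mitotic chromosomes, was at 120.4, 125 and 149 CPM in the controls and at 175, 141 and 177 CPM in MaeaCsf1r-Cre HSCs. By CPM only control replicate 3 and MaeaCsf1r-Cre replicate 2 crossed, and with scaling by median ratios they did not. The unadjusted p depended on the setting too, at 0.0162 with median ratios and 0.0946 without the mean-variance trend (limma). The adjusted p was 0.935 and 0.973 in that order. The means were 132 ± 15.4 and 164 ± 20.5 CPM (SD, n = 3 each), with log2 fold change 0.32 ± 0.14 (SE, unadjusted p = 0.0579 and adjusted p = 0.967 from limma). That unadjusted p of 0.0579 was the smallest of the 42 in limma on CPM, and the difference was 1.59 times the larger SD. Top2a, the topoisomerase that untangles sister chromatids, was at 312, 243 and 273 CPM in control and 377, 234 and 337 CPM in MaeaCsf1r-Cre HSCs. Its highest and lowest libraries were both MaeaCsf1r-Cre, with a log2 fold change of 0.17 ± 0.19 (SE).

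Other genes of the same machinery were read from lists that hold no member. Of 54 further kinetochore and spindle genes, 46 had a higher log2 mean in MaeaCsf1r-Cre HSCs, with a median log2 fold change of 0.14, and 6 separated the groups upward and 1, Mis12, downward. Of all genes tested 2.49% separated upward and 6.06% downward. In the replicate 2 pair 31 of these 54 genes were higher, against 14 of the 42 members. Cenpm, a kinetochore subunit, was at 19.0, 19.99 and 23.4 CPM in control and 28.3, 24.2 and 29.0 CPM in MaeaCsf1r-Cre HSCs. Melk, a mitotic kinase gene, was at 27.8, 27.2 and 32.5 CPM in control and 34.2, 36.1 and 39.1 CPM in MaeaCsf1r-Cre HSCs. Both were higher in every MaeaCsf1r-Cre library than in every control, with log2 fold changes of 0.37 and 0.31 and an adjusted p of 0.967 each (limma). Of the 8 condensin genes, which compact chromosomes, 6 were higher with a median of 0.13. Ncapd2 had the smallest unadjusted p of these and overlapped between the groups, at 139.7 ± 10.3 and 161 ± 11.2 CPM (SD, n = 3 each), with a log2 fold change of 0.21 ± 0.12 (SE). Ncaph2 separated the groups, at 168 ± 1.31 and 182 ± 6.74 CPM (SD, n = 3 each).

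The subunits of the anaphase-promoting complex, which are present throughout the cell cycle, did not share the direction. Of 13 subunit and activator genes 7 were higher, with a median log2 fold change of 0.00. Cdc16 was at 90.1, 95.4 and 99.2 CPM in control and 81.5, 65.3 and 89.5 CPM in MaeaCsf1r-Cre HSCs, and Cdc27 averaged 52.4 ± 2.92 and 47.6 ± 2.59 CPM (SD, n = 3 each). Both were lower in every MaeaCsf1r-Cre library than in every control, with log2 fold changes of -0.28 and -0.14, although the nearest libraries of Cdc27 were level at 50.1 CPM. Anapc13, a small subunit, separated upward, at 17.9, 19.98 and 20.4 CPM in control and 21.7, 21.0 and 21.5 CPM in MaeaCsf1r-Cre HSCs. Of these 13 genes 2 separated downward and 1 upward, where 6.06% and 2.49% of all genes tested did. Of 6 brakes and drivers of entry 2 were higher, the CDK1 inhibitor kinase gene Pkmyt1, at 24.7 ± 5.25 and 31.6 ± 1.84 CPM, and the cyclin gene Ccnf, at 88.7 ± 16.8 and 102 ± 14.1 CPM (SD, n = 3 each).

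The genes of the complex that reads the CHR did not share 1 direction. Of 9 genes of MuvB and its partners 5 were higher, with a median log2 fold change of 0.01. Mybl2, which encodes the activating partner B-Myb, was at 44.3, 29.7 and 43.8 CPM in control and 58.7, 42.1 and 51.7 CPM in MaeaCsf1r-Cre HSCs. Each MaeaCsf1r-Cre library was above its same-numbered control, with a log2 fold change of 0.37 ± 0.20 (SE). Rbl2, which encodes the p130 pocket protein of the repressor DREAM, was at 62.8, 79.4 and 62.4 CPM in control and 47.5, 46.8 and 61.7 CPM in MaeaCsf1r-Cre HSCs. Every MaeaCsf1r-Cre library was below every control, with a log2 fold change of -0.39 ± 0.16 (SE). Of the other genes of this list Lin9, a MuvB subunit, also separated downward, with a log2 fold change of -0.18, although its nearest libraries were level at 16.9 CPM. Of the 9 genes 2 thus separated downward and 0 upward, where 6.06% and 2.49% of all genes tested did. Mybl2 and Rbl2 did not pass the test, with an adjusted p of 0.967 each (limma) and of 0.262 and 0.314 with the replicate block.

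S phase genes were also read by pair. Of 30 genes of replication licensing, nucleotide supply and the G1 to S step, 27 had a higher log2 mean in MaeaCsf1r-Cre HSCs, with a median log2 fold change of 0.11. In the replicate 2 pair 24 of 30 were higher with a median of 0.12, where the mitosis genes had a median of -0.05. In the replicate 3 pair 17 of 30 were higher with a median of 0.04, where the mitosis genes had one of 0.36. Tyms, thymidylate synthase, averaged 93.8 ± 15.2 and 111 ± 13.3 CPM in control and MaeaCsf1r-Cre HSCs, and Mcm7, a subunit of the replicative helicase, 355 ± 22.6 and 406 ± 41.1 CPM (SD, n = 3 each). Mcm7, Gins1 and Gins2, or 3 of 30 genes, separated the groups upward and 0 downward, where 2.49% and 6.06% of all genes tested did. The nearest libraries of Gins1 were level at 18.2 CPM, and those of Gins2 were at 61.7 and 62.5 CPM. The difference between the S phase and mitosis lists was not tested. None of the genes in the further lists had an adjusted p under 0.05 in limma, with or without the block, and 2 of these 120 genes had an unadjusted p under 0.05 without it, Cenpm upward and Rbl2 downward, where 0.803% of all genes were called upward and 3.19% downward. With the block 11 were called upward and 3 downward at that threshold, where 3.11% and 10.8% of all genes were.

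Markers of other cells varied from library to library beside the mitosis genes. The summed level of 7 erythroid genes was 4004, 1467 and 893 CPM in the controls and 4331, 1725 and 1974 CPM in MaeaCsf1r-Cre HSCs, most of it the carbonic anhydrase gene Car1. Klf1, the erythroid transcription factor, was at 319, 119 and 94.0 CPM in control and 331, 122 and 202 CPM in MaeaCsf1r-Cre HSCs. The 3 libraries that led for the summed mitosis genes also led for 4 of the 7 erythroid genes, Klf1, Car1, Gata1 and Epor, and not for Alas2 or the globin genes Hba-a1 and Hbb-bs. Hba-a1 was lowest in MaeaCsf1r-Cre replicate 1, at 10.5 CPM, and highest in MaeaCsf1r-Cre replicate 3, at 32.5 CPM. The mitosis sum was 4234, 3403 and 3478 CPM in control and 4803, 3225 and 4460 CPM in MaeaCsf1r-Cre HSCs. Of the erythroid list 5 of 7 genes had a higher mean in MaeaCsf1r-Cre HSCs and 0 separated the groups.

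**Figure D5:**
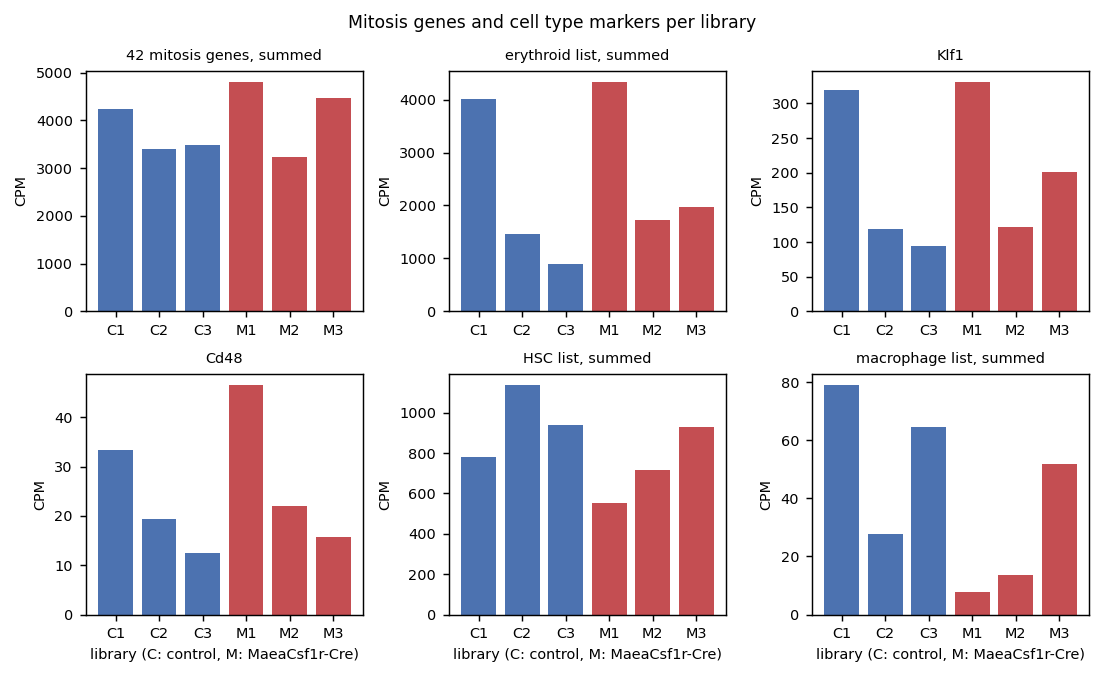
Summed or single CPM (vertical axes, from 0) of the mitosis genes and cell type markers in each library (horizontal axes, C1 to C3 control and M1 to M3 MaeaCsf1r-Cre). The mitosis sum and Klf1 are both highest in M1 and next in C1 and M3 (in differing order), and the HSC list is lowest in M1 and highest in C2.

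The sum of 8 HSC genes, most of it Kit, was 779.8, 1136 and 939 CPM in control and 553, 716 and 929 CPM in MaeaCsf1r-Cre HSCs. It was lowest in MaeaCsf1r-Cre replicate 1, where the mitosis sum was highest. It was next lowest in MaeaCsf1r-Cre replicate 2, where the mitosis sum was lowest by CPM, a place that depends on the scaling. Of these 8 genes 6 had a lower mean in MaeaCsf1r-Cre HSCs, Ly6a and Slamf1 had a higher one, and 0 separated the groups. Cd48, which the sort excluded, was detected in all libraries, at 33.5, 19.4 and 12.4 CPM in control and 46.5, 22.1 and 15.8 CPM in MaeaCsf1r-Cre HSCs. The 10 macrophage genes summed to 27.9 to 79.0 CPM in control and 7.82 to 51.8 CPM in MaeaCsf1r-Cre libraries, with 10 of 10 lower by mean. Marco among them was at 0.0876 CPM in control replicate 3 and at 0 in all other libraries. Of the 8 macrophage genes that passed the filter for testing 5 separated the groups downward, beside 6.06% of all genes tested. Of these, C1qa, C1qb and C1qc were below a CPM of 1 in every MaeaCsf1r-Cre library. They passed the filter through the controls alone, so their separation followed from the filter and the 2 shares are not comparable. Flt3, a receptor of multipotent progenitors that the sort did not use, was at 67.2, 120 and 34.4 CPM in control and 15.7, 33.7 and 37.0 CPM in MaeaCsf1r-Cre HSCs. The lineage marker Ly6g was at 0 in all libraries, as were the B cell genes Ms4a1 and Pax5 of 6. The sums ran from 33.2 to 54.96 CPM in control and 13.2 to 26.3 CPM in MaeaCsf1r-Cre libraries for B cell genes. For granulocyte and monocyte genes they ran from 77.1 to 315 CPM and 75.9 to 169 CPM, and for megakaryocyte genes from 287 to 1293 CPM and 340.3 to 693 CPM. Of the 6 B cell genes 1, Ighm, separated the groups downward, beside 6.06% of all genes tested. Ighm was at 16.9, 29.5 and 7.51 CPM in control and 0.279, 0.838 and 2.26 CPM in MaeaCsf1r-Cre HSCs. Of the 8 granulocyte and monocyte genes 1, S100a9, separated downward, below a CPM of 1 in all libraries, and 0 of the 6 megakaryocyte genes did. The part of these cells in the level of the mitosis genes was not tested.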

How the data were processed

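Per the labels and the study's methods, the authors sequenced SMART-Seq v4 and Nextera XT libraries single-ended on a NextSeq instrument. The processing notes name Trim Galore, STAR 2.5.3a, Partek and mm10, and the deposited values are CPM per Ensembl gene, with 0.0001 added to each by the authors and no counts beside them. Since 76.7% to 78.2% of low values lay within 0.05 of whole reads, counts were not rebuilt, so differences were taken on log2(CPM + 1), which understates the change of low genes. The 12955 genes of 46959 rows that reached a CPM of 1 in 3 or more libraries were fitted with limma 3.58.1 (R 4.3.3, mean-variance trend, two-sided, Benjamini-Hochberg adjustment over all of them, threshold 0.05). By the estimated depths a signal of 3 reads was 0.0492 to 0.0910 CPM, which covers counting error only.

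Replicate numbers come from the sample titles. Deviations from the group means correlated across genes for same-numbered libraries (Pearson's r = 0.627, 0.523 and 0.397, against -0.459 to -0.0538 otherwise, with genes not independent replicates), so fits with the number as a block were also made. Deviations within a group cancel for each gene, so positive values for same-numbered libraries force negative ones among the others. The negative values are thus no separate evidence. Each replicate was a pool of mice, and the study's general statement on independent experiments does not name these libraries, so p-values measure the spread between them, which may in part be technical. Of each role the 2 members with the smallest unadjusted p are given in full, and of each further list the 2 such genes. The members and lists were chosen with earlier results of these data known. One gene each of the HSC and erythroid marker lists is not reported here and was left out of the sums. Exon lengths and shared exons came from GENCODE M21, promoters from RefSeq. Alternatives covered the pseudocount, filter, scaling, moderation trend, length correction, block and each library left out, and leaving out both libraries of 1 replicate number was added after seeing the data. Tables and plots were made with pandas 2.3.3, numpy 2.4.6 and matplotlib 3.10.9 in Python 3.11.15.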

Additional observations from a re-analysis of the deposited data

How the results depend on the processing

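With 3 libraries a group and a module that varied by 0.24 (SD of its log2 mean within groups), differences of the size seen here were not called. Under the 18 alternatives 0 mitosis genes were called at an adjusted p under 0.05 and the median log2 fold change stayed above 0, from 0.04 to 0.33 with libraries left out, and at 0.26 with length correction, 0.21 with median ratios and 0.17 with quantile normalization, where the median of all genes was 0.03, 0.00 and 0.02. Between 28 and 42 members were higher. The genes called over the whole table numbered 0 with a filter at a CPM of 10, 16 with the replicate block and length correction, and 0 to 3 with libraries left out. Members with an unadjusted p under 0.05 numbered 1 with length correction, 3 with median ratios, 3 with quantile normalization, 4 with the replicate block, 25 with the block and length correction, and 0 to 10 with libraries left out. Members that did not overlap numbered 1 with median ratios, Mki67, and 0 to 27 with libraries left out. Settings that leave CPM unchanged give no other count. For quantile normalization and length correction this count was not made. Of the 14 members given in full, the log2 fold change kept its sign in 251 alternative fits and turned in 1. Racgap1 had -0.0029 without both libraries of replicate 1, within a range of -0.0029 to 0.22. The replicate block changed no other call, and the cause of these changes was not tested. Where a group was left with fewer libraries, limma took the spread from all of them.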
